A study of Mus musculus with 4 samples.

Results

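The STAT transcription factors were followed as 6 genes of the deposited expression table, Stat2, Stat3, Stat4, Stat5a, Stat5b and Stat6, which were picked by gene name. All 6 were found among the 52636 genes of the table, and all 6 passed the filter of a mean of at least 1 FPKM (fragments scaled to gene length and sequencing depth) that left 10562 genes for testing. RNA came from mouse Th17 cells (interleukin 17-secreting CD4 T cells) polarized in vitro, and 2 libraries carry the label PP2A WT while 2 carry the label PP2A cKO. PP2A is a serine/threonine phosphatase made of catalytic, scaffold and regulatory subunits, and the labels name neither the deleted subunit nor the Cre line that deleted it, nor the age of the mice. Cells of both groups came from the C57BL/6 strain. Naive cells and irradiated antigen presenting cells were put together at 1 to 3 and kept for 2 days under stimulating antibodies, 2 µg/ml of each, against CD3 and CD28. The medium held IL-6 at 20 ng/ml and TGF-β1 at 2 ng/ml, and IFN-γ and IL-4 were blocked by antibodies at 10 µg/ml. PMA (50 ng/ml) and ionomycin (500 ng/ml), which together mimic T cell receptor signalling, were present for the last 4 h. The comparison asks what the loss of PP2A does to Th17 cells at the level of transcripts.

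STAT proteins wait in the cytoplasm until a cytokine receptor is engaged. A Janus kinase (JAK) bound to that receptor then phosphorylates a tyrosine of the STAT, and paired STATs enter the nucleus and bind DNA, most often at a palindrome called GAS. STAT2 acts mainly with IRF9 in the complex that answers type I interferon at a different element, the ISRE. In helper T cells, STAT3 carries signals of IL-6, IL-21 and IL-23 and is needed for Th17 differentiation, STAT4 carries IL-12 signals towards Th1, STAT6 carries IL-4 signals towards Th2, and STAT5A and STAT5B carry IL-2 signals, which favour regulatory T cells and restrain Th17 cells. The values below are transcript levels, so phosphorylation of the proteins was not seen.

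One promoter is shown because Stat2 was the STAT gene that passed the test. The 250 bases before its RefSeq transcript start (GRCm38.p6, chr10:128270248-128270497, plus strand) read, with the match to an ISRE search in capitals:
Stat2: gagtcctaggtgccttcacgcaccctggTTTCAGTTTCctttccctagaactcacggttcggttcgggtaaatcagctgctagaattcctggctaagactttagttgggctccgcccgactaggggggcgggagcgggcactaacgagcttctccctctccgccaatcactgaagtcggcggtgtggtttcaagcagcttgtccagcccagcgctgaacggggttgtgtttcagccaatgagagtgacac
The ISRE search took GAAA, any 2 bases and GAAA on both strands, and the GAS search took TTCNNNGAA, which reads the same on both strands, over windows from 250 bases before to 50 after each start. The Stat2 match lies on the minus strand, with its first base 222 bases before the start. An ISRE match was found in 3.44% of all 32851 RefSeq windows and a GAS match in 8.30%. Among the 6 STAT genes, ISRE matches were found for Stat2 and, at the second of its windows, for Stat4, and no STAT window held a GAS match. Of 19 STAT2 target genes listed below, 14 had a window and 9 of these held an ISRE match. Counted by gene in the same way, 3.99% of all 27025 genes with a window held an ISRE match. Matches that lie wholly before the start are shown for Stat2, Stat4 and 3 of those targets as 42-base stretches, written along the strand of the gene, since the targets are set beside Stat2 below. Isg15 has 3 such matches that overlap and Bst2 has 2, of which 1 each is capitalized, and the other Bst2 match overlaps a GAS match:
Stat2 (chr10:128270260-128270301, plus strand): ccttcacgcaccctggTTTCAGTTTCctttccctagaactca
Stat4 (chr1:52008127-52008168, plus strand): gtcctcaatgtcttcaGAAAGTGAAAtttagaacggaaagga
Isg15 (chr4:156200865-156200906, minus strand): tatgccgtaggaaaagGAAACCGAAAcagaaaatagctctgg
Oas3 (chr5:120777709-120777750, minus strand): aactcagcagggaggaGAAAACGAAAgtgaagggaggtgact
Bst2 (chr8:71537571-71537612, minus strand): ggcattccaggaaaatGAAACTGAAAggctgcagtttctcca
A match describes these letters and is not a measured binding site. The matched stretches of Stat2 and Bst2 are the same letters on opposite strands.

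A pair of stretches is shown for Stat5a and Stat5b because they hold long identical runs, where a read could fit both genes. The longest coding transcripts of the genes in GENCODE M21 have 10 identical runs of at least 50 bases, the longest with 324 bases inside the coding part of both. The end of that run reads as follows, 80 bases from transcript positions 1178 to 1257 in Stat5a and 1332 to 1411 in Stat5b, with the base that differs in capitals:
Stat5a: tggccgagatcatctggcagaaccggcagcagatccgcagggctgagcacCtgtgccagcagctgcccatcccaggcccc
Stat5b: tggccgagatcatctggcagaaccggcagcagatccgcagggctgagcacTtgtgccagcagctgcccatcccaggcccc
Of the 50-base words of the longest Stat5a transcript, 421 of 3909 (10.8%) were also found in Stat5b, and no other pair of the 6 STAT genes shared any. How far this affects the values of Stat5a and Stat5b is not known. The sources used here do not give how reads from such runs were assigned.

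The libraries hold 19347055 and 18517487 gene-assigned reads in WT and 20387948 and 19521977 in cKO, recovered from the FPKM values. Biological replicates are named in the series' design, but no mice or cultures, and the p-values therefore measure only how far these libraries spread, which may be technical. Ppp2ca, which encodes the main catalytic subunit of PP2A, had 42.2 and 50.1 FPKM in WT and 41.8 and 34.5 FPKM in cKO (limma, adjusted p = 0.36), and a deleted exon cannot be seen in a gene total. Markers of the T cell lineage summed to 924 to 1339 FPKM per library, 6 B cell markers to 0.374 to 0.786 FPKM, 8 myeloid and dendritic markers to 1.45 to 2.30 FPKM, and 5 CD8 and NK markers to 7.65 and 8.28 FPKM in WT and 9.39 and 10.3 FPKM in cKO. In the B cell and myeloid lists, Ms4a1 had 1 read in all, and Lyz2, Adgre1 and Csf1r had at most 2 reads in any library. Cd79a had 9 to 18 reads, Cd14 had 2 to 24 and Cd68 had 1.11 to 1.42 FPKM. In the CD8 and NK list, Klrb1c and Ncr1 had 0 reads. Cd8b1 of that list had 7.06 and 7.91 FPKM in WT and 9.03 and 9.84 FPKM in cKO, without overlap (limma, adjusted p = 0.198). The T cell markers summed to 969 and 924 FPKM in WT and to 1245 and 1339 FPKM in cKO. Cd5 made up much of that difference, since the other 7 summed to 590 and 606 FPKM in WT and 685 and 664 FPKM in cKO, and 0 of the 8 genes passed the test (limma; 4 higher and 1 lower at an unadjusted p under 0.05, 1 called higher by voom). Their part in the results below was not tested, and fewer cells of a type cannot be told apart from less RNA per cell in such bulk libraries.

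Stat2 was higher in the cKO cells. It lies on chromosome 10 from 128270559 to 128292849 on the plus strand (GRCm38) and its level was 3.73 and 3.93 FPKM in WT against 6.59 and 7.03 FPKM in cKO. Both cKO libraries lay above both WT libraries, and the gap between the groups was larger than the spread within either. The values rest on 432 and 445 reads in WT and 793 and 808 reads in cKO. The mean rose from 3.83 ± 0.145 to 6.81 ± 0.314 FPKM (SD, n = 2), which is 1.78-fold, or a log2 fold change of 0.69 ± 0.09 (SE) on log2(FPKM + 1) that passed the test (limma, adjusted p = 0.0491). In the same comparison 0.814% of all tested genes were called higher and 0.256% lower (1.07% in either direction), and 3.85% had a larger absolute log2 fold change than Stat2. The call lies next to the threshold of 0.05 and was lost in 8 of 16 alternatives, among them no filter on low values (adjusted p = 0.176) and TPM scaling, which gives each library an equal sum (0.0644). Those 8 include the fits without WT replicate 1 (log2 fold change 0.66, adjusted p = 0.216) or WT replicate 2 (0.72, adjusted p = 0.23), settings that called 0.72% and 0.521% of all tested genes. It held without cKO replicate 1 (0.73, adjusted p = 0.0485) and without cKO replicate 2 (0.65, adjusted p = 0.0172), which called 2.48% and 28.4%. The limma voom method on the recovered reads gave 0.83 (adjusted p = 0.0148), and it called 5.18% of all tested genes, 2.69% higher and 2.49% lower.

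**Figure D1:**
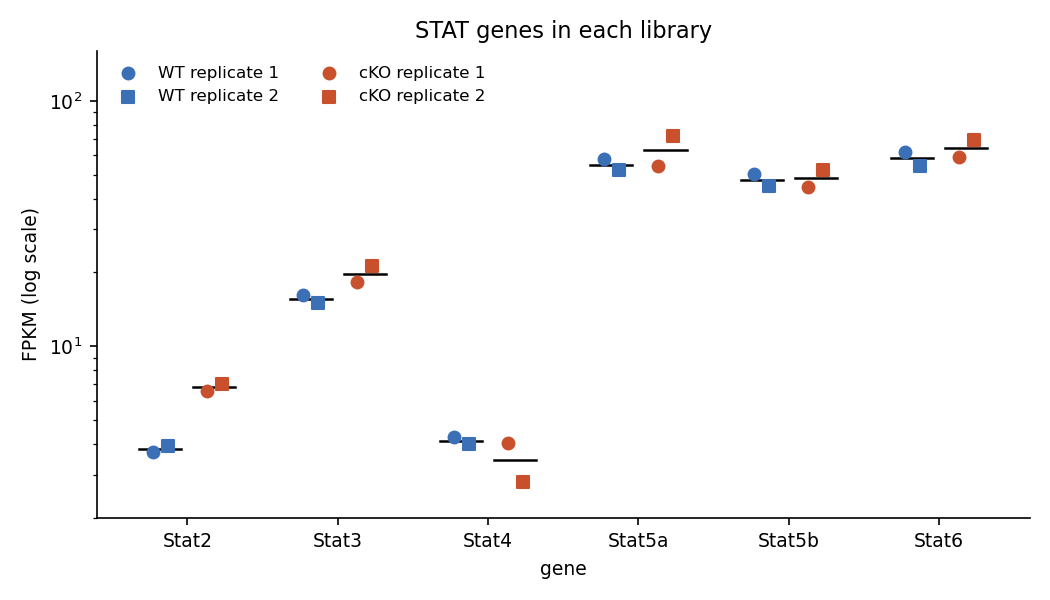
FPKM (y axis, log scale) of the 6 STAT genes by library, 2 WT and 2 cKO, with a black bar at each group's mean. The cKO points of Stat2, 6.59 and 7.03, lie above its WT points, 3.73 and 3.93, and Stat3 also shows no overlap, while the other 4 genes overlap between the groups.

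Stat3, the STAT that carries the IL-6 signal used to polarize these cells, had 16.2 and 15.0 FPKM in WT and 18.2 and 21.3 FPKM in cKO. Both cKO libraries were above both WT libraries, by less than the gap between the cKO libraries themselves. The gene lies on chromosome 11 from 100885098 to 100939540 on the minus strand. Its mean was 15.6 ± 0.857 FPKM in WT and 19.8 ± 2.18 FPKM in cKO (SD, n = 2), and its log2 fold change of 0.32 ± 0.11 (SE) missed the threshold (adjusted p = 0.215 by limma). The unadjusted 95% interval of the log2 fold change ran from 0.03 to 0.61. Groups that do not overlap with cKO higher were found for 27.2% of all tested genes, and for 2 of the 6 STAT genes, Stat2 and Stat3. With cKO lower, they were found for 28.7% of all tested genes (55.9% in either direction) and for 0 STAT genes.

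Stat4, on chromosome 1 from 51987148 to 52107189 on the plus strand, was the STAT gene with the lowest mean level. It had 4.25 and 4.00 FPKM in WT and 4.04 and 2.81 FPKM in cKO. The cKO libraries did not resemble each other: replicate 1 fell between the WT libraries and replicate 2 lay under both. The reads behind these values were 322, 296, 318 and 211. The log2 fold change was -0.23 ± 0.16 (SE; limma, adjusted p = 0.452), with a 95% interval from -0.62 to 0.17. Of the annotated exon bases of Stat4, 26.7% are shared with Gm28177, a transcript on the same strand that had at most 0.0836 FPKM in any library, and the counting of reads in the shared bases is not known from the sources used here.

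Stat5a and Stat5b lie side by side on chromosome 11, from 100859351 to 100885169 on the plus strand and from 100780731 to 100850724 on the minus strand, with 8626 bases between them. Stat5a had 57.8 and 52.2 FPKM in WT and 54.2 and 71.6 FPKM in cKO, so that only cKO replicate 2 stood above the WT libraries. Stat5b had 50.1 and 45.1 FPKM in WT and 44.6 and 52.2 FPKM in cKO, and the WT values lay between the cKO values. Neither gene passed the test. The log2 fold change of Stat5a was 0.18 ± 0.16 (SE; limma, adjusted p = 0.553), with a 95% interval from -0.23 to 0.58, and it turned to -0.020 without cKO replicate 2. That of Stat5b was 0.02 ± 0.12 (limma, adjusted p = 0.933), with an interval from -0.29 to 0.33, and its sign turned without WT replicate 2 (-0.054), without cKO replicate 2 (-0.090) and with TPM scaling (-0.072).

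The FPKM of Stat5a over that of Stat5b was 1.15 and 1.16 in WT, against 1.21 and 1.37 in cKO. The groups did not overlap, and the exact permutation test gave p = 0.333 (two-sided), the smallest p that 2 libraries against 2 allow. The longest transcripts of Stat5a and Stat5b differ in GC content, 57.9% against 52.7%, and the cKO libraries differ from each other along GC content, as described below. After correction for GC content the ratio was 1.12 and 1.14 in WT and 1.33 and 1.32 in cKO, so the groups lay further apart. The share of other gene pairs whose ratios separate in this way was not computed, so nothing is read from the separation.

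Stat6, on chromosome 10 from 127642986 to 127660957 on the plus strand, had 62.1 and 54.4 FPKM in WT and 59.0 and 69.1 FPKM in cKO. The groups overlapped, with cKO replicate 1 between the WT libraries. Its mean was 58.2 ± 5.41 FPKM in WT and 64.0 ± 7.13 FPKM in cKO (SD, n = 2), and its log2 fold change was 0.13 ± 0.13 (SE; limma, adjusted p = 0.58), with a 95% interval from -0.19 to 0.46. Stat6 shares 40 bases with the opposite-strand gene Nab2 and Stat3 shares 72 with Stat5a at their ends, which is 0.909% of the exon bases of Stat6 and 0.756% of those of Stat3.

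Over the 6 genes, 1 was called higher and 0 lower (limma; 2 higher and 0 lower at an unadjusted p under 0.05, and 1 higher and 0 lower by voom). At an unadjusted p under 0.05, 9.56% of all tested genes were higher and 10.3% lower, which is the background for each such count below. For counts of called genes below, the background was 0.814% higher and 0.256% lower by limma, and 2.69% and 2.49% by voom. The median log2 fold change of the 6 STAT genes was 0.16, beside 0.00 over all tested genes. The 86 higher and 27 lower calls among all tested genes depended on the test: voom called 284 higher and 263 lower, and a correction for GC content gave 280 higher and 237 lower. Stat2 kept a positive log2 fold change in every alternative run, from 0.65 to 0.83, but passed the threshold in 8 of the 16 and missed it in the other 8. Stat3 also kept its sign, from 0.21 to 0.43. Stat3 passed the threshold in none of the 16 alternatives, its lowest adjusted p being 0.0738, without cKO replicate 1.

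**Figure D2:**
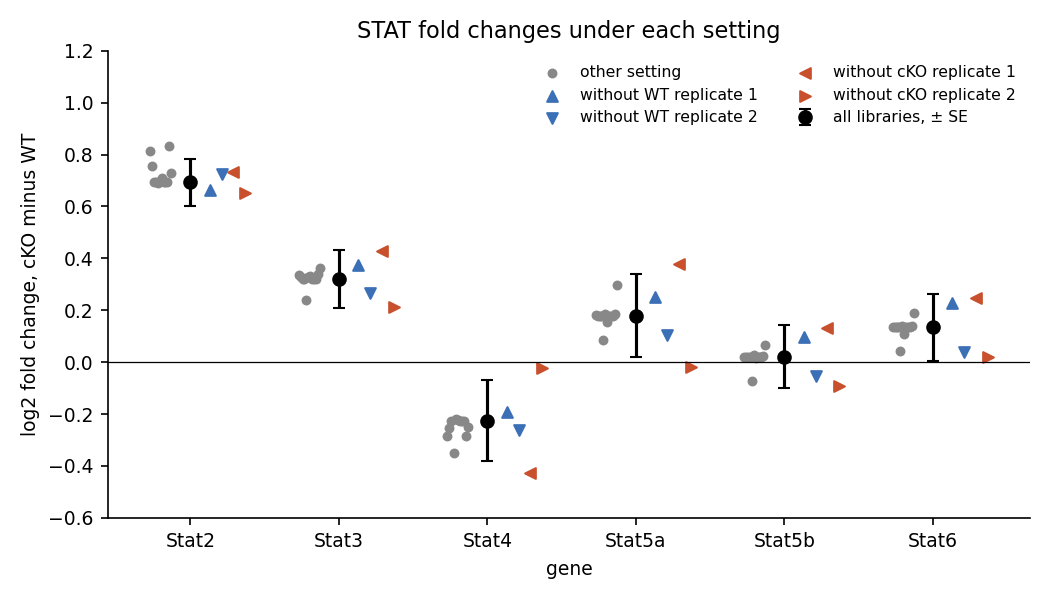
Log2 fold change of cKO minus WT (y axis) for the 6 STAT genes with all libraries (black, ± SE), without each library in turn (triangles) and under the other settings (grey). Stat2 stays between 0.65 and 0.83, while Stat4 moves from -0.43 without cKO replicate 1 to -0.02 without cKO replicate 2.

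The level of the genes, set per length in FPKM, ran from Stat6 and Stat5a over Stat5b and Stat3 down to Stat2 and Stat4. Stat6 and Stat5a, with means of 61.1 and 58.9 FPKM over the 4 libraries, did not differ beyond their spread, since Stat5a was the higher one in cKO replicate 2. Stat5a was above Stat5b in all 4 libraries, and Stat3, with a mean of 17.7 FPKM, was under all values of these 3 genes. Stat2 and Stat4 changed places: Stat4 was the higher one in both WT libraries and Stat2 the higher one in both cKO libraries. Stat2 made up 1.92% and 2.25% of the summed STAT FPKM in WT and 3.53% and 3.14% in cKO. The 6 genes together summed to 194 and 175 FPKM in WT and to 187 and 224 FPKM in cKO, which overlap (exact permutation test, two-sided p = 0.667).

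The deposited gene length is the union of all annotated exons, 9527 bases for Stat3 and 7133 for Stat5a, against 6042 and 3958 for their longest transcripts. With the longest transcript as the length and the gene-assigned reads as the depth, the order began with Stat5a (mean 107), Stat6 (71.8) and Stat5b (51.4), followed by Stat3 (28.1), Stat2 (7.20) and Stat4 (4.95). Stat5a thus passed Stat6 in every library on that scale, while the order of the other genes stayed as in FPKM. In WT replicate 2, Stat2 (5.47) was then just above Stat4 (5.36).

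The cKO libraries differed from each other along the GC content of the transcripts. The differences of the STAT genes followed the same order, with sizes beyond the trend, though only slightly for Stat2. Across the tested genes, Spearman's rho between GC content and the difference of cKO replicate 2 minus cKO replicate 1 was 0.529, and for WT replicate 2 minus WT replicate 1 it was -0.121, as a description across genes, which are not independent replicates. Stat4, with 45.4% GC, had a difference of -0.40 between the cKO libraries on log2(FPKM + 1). Stat2, with 51.9% GC, differed by 0.08. Stat3 (52.5%), Stat5b (52.7%) and Stat6 (53.7%) differed by 0.21, 0.22 and 0.22. Stat5a, with 57.9% GC, differed by 0.40, so the order of the 6 differences was the order of GC content. At the same GC content, the trend of all tested genes stood at -0.09 for Stat4, 0.06 for Stat2, 0.08 for Stat3, 0.09 for Stat5b, 0.12 for Stat6 and 0.27 for Stat5a.

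**Figure D3:**
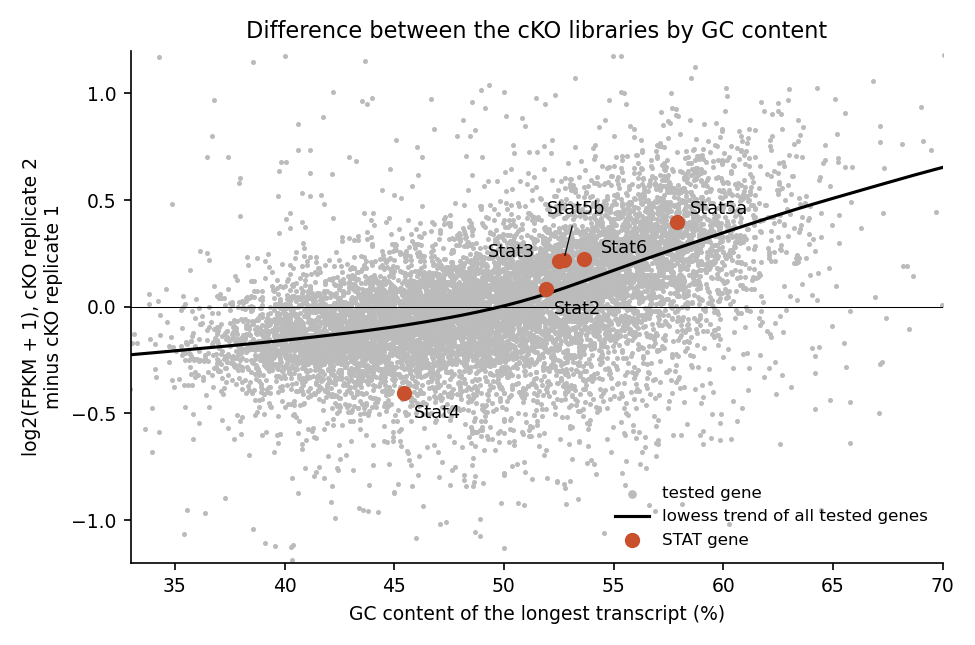
Difference of log2(FPKM + 1) between cKO replicate 2 and cKO replicate 1 (y axis) against GC content of the longest transcript in percent (x axis) for the tested genes (grey), with their lowess trend (line) and the 6 STAT genes (orange). Points beyond the axis limits are not drawn. Stat4 lies at -0.40, under the trend, and Stat5a at 0.40, above it.

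With each library corrected for its GC trend, Stat2 had 3.66 and 3.87 FPKM in WT and 6.81 and 6.99 FPKM in cKO, a log2 fold change of 0.73 (limma, adjusted p = 0.0228). Stat3 had 15.9 and 14.8 in WT and 19.0 and 21.1 in cKO on that scale, a log2 fold change of 0.36 (adjusted p = 0.0883). Stat5a had 55.0 and 50.6 in WT and 61.9 and 68.1 in cKO (0.30, adjusted p = 0.137), Stat6 had 60.6 and 53.5 in WT and 62.5 and 67.8 in cKO, and Stat4 had 4.31 and 4.03 in WT and 3.84 and 2.90 in cKO. After the correction the groups thus did not overlap for 5 of the 6 STAT genes, with cKO higher for 4 and lower for 1, Stat4, while those of Stat5b overlapped. Over all tested genes such separation was found with cKO higher for 30.4% and lower for 29.2%. Stat2 alone among the STAT genes passed the test. The correction called 4.89% of all tested genes, beside 1.07% without it.

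Of the tested genes next to Stat2 and the chromosome 11 cluster, looked up after the STAT values had been seen, none passed the test. Timeless, a gene of the replication fork that lies 17617 bases before Stat2, had 13.0 and 14.2 FPKM in WT and 8.67 and 9.36 FPKM in cKO (log2 fold change -0.54, limma, adjusted p = 0.0723; voom, adjusted p = 0.0305). Il23a, which encodes the p19 chain of IL-23 and lies 3289 bases after Stat2, had 1.71 and 1.16 FPKM in WT and 1.80 and 2.73 FPKM in cKO (0.42, adjusted p = 0.31). Ghdc and Atp6v0a1, the tested genes on either side of the Stat5b, Stat5a and Stat3 cluster, had log2 fold changes of 0.36 and -0.16 (adjusted p = 0.28 and 0.528).

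The gene whose profile over the 4 libraries was most like that of Stat2 was Phf11b, at a Euclidean distance of 0.0181 between mean-centred log2(FPKM + 1) values. Phf11b had 9.84 and 10.1 FPKM in WT and 16.3 and 17.3 FPKM in cKO. The next was the interferon-induced membrane protein gene Bst2 (distance 0.0372), whose 54.3 and 55.7 FPKM in WT and 87.9 and 94.8 FPKM in cKO just missed the threshold (log2 fold change 0.72, limma, adjusted p = 0.0504). Of 9200 genes compared, 61 lay within a distance of 0.2 of Stat2, 402 of Stat3, 202 of Stat4, 325 of Stat5a, 1667 of Stat5b and 910 of Stat6. The most like Stat3 were Klf11, Dusp2 and Prkd2, the most like Stat5a were Jade2, Tnfrsf14 and Fam102a, and those most like Stat5b included Cdc34 and Aph1a. For Stat4 they included Thumpd2 and Rp2, and for Stat6 they were Sik1, Zfp296 and Trim11. With 4 libraries such likeness is a description only.

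Upstream of the STATs, Il10 and Csf2 were the cytokine ligand genes that rose in cKO. Of 21 ligands 13 were tested, of which 2 rose and 0 fell, beside 0.814% and 0.256% of all tested genes (limma; 10 higher and 0 lower at an unadjusted p under 0.05, and 9 higher and 0 lower by voom), with a median log2 fold change of 0.90. Il4 and Il13 passed the filter with a WT mean under 1 FPKM. Il10, which signals through STAT3, had 47.9 and 41.0 FPKM in WT and 111 and 109 FPKM in cKO (1.29 ± 0.11, limma, adjusted p = 0.027). Csf2, whose product GM-CSF signals through STAT5, had 95.1 and 56.5 FPKM in WT and 397 and 306 FPKM in cKO (2.23 ± 0.28, adjusted p = 0.0456). A receptor chain gene of each ligand lay below the filter. Csf2rb had 0 and 1 reads in WT and 0 and 1 reads in cKO. Il10ra had 0.570 and 0.269 FPKM in WT and 0.816 and 0.752 FPKM in cKO. Il10rb, another receptor chain gene for IL-10, was tested. It had 1.96 and 1.87 FPKM in WT and 1.81 and 2.21 FPKM in cKO (0.04, limma, adjusted p = 0.854). Whether these cells respond to either ligand was not tested. Il21, another STAT3 ligand, had 138 and 117 FPKM in WT and 244 and 202 FPKM in cKO without passing (0.80, adjusted p = 0.0743). Transcripts of Il6 itself were almost absent, with at most 1 read in a library, and IL-6 was supplied in the medium. The call of Csf2 was lost without cKO replicate 1 (adjusted p = 0.0636), and that of Il10 without WT replicate 1 or 2 (0.0552 and 0.116).

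Of 24 receptor chain genes 18 were tested, and Il12rb2, the chain of the IL-12 receptor that recruits STAT4, was the single one that rose. It had 1.33 and 1.42 FPKM in WT and 3.04 and 3.34 FPKM in cKO (log2 fold change 0.82 ± 0.11, limma, adjusted p = 0.0489), and the call was lost without any one of WT replicate 1, WT replicate 2 and cKO replicate 1 (adjusted p = 0.147, 0.153 and 0.0522). Of the other receptor genes 0 passed (limma; 4 higher and 1 lower among all 18 at an unadjusted p under 0.05, 1 higher by voom), and the list had a median of 0.07. The chains that feed STAT3, Il6ra and Il6st, had log2 fold changes of -0.12 and -0.14 (adjusted p = 0.562 and 0.464), and Il21r had 0.14 (adjusted p = 0.59). Il23r, the IL-23 receptor chain and the receptor gene that was lower at an unadjusted p under 0.05, is added after its values were seen. It had 26.7 and 25.0 FPKM in WT and 21.8 and 19.5 FPKM in cKO (-0.31, adjusted p = 0.194). Il2ra and Il2rb, which feed STAT5, had 0.10 and 0.04 (adjusted p = 0.57 and 0.83), and Il4ra, which feeds STAT6, had 0.25 (adjusted p = 0.33). The interferon receptor genes Ifnar1 and Ifnar2, which feed STAT2, had 0.38 and -0.08 (adjusted p = 0.114 and 0.628).

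None of the 4 JAK kinase genes passed (limma; 1 higher and 0 lower at an unadjusted p under 0.05, 1 higher by voom). Jak2 had 117 and 110 FPKM in WT and 156 and 159 FPKM in cKO, without overlap (log2 fold change 0.47, adjusted p = 0.0911; voom, adjusted p = 0.048). Jak1, Jak3 and Tyk2 had log2 fold changes of 0.17, -0.12 and 0.02 (adjusted p = 0.35, 0.8 and 0.971). Of 19 inhibitor genes 1 rose and 0 fell (2 higher and 0 lower at an unadjusted p under 0.05, 2 higher by voom), with a median of -0.05. It was Usp18, which restrains interferon receptor signalling, with 0.220 and 0.281 FPKM in WT and 2.01 and 2.01 FPKM in cKO (log2 fold change 1.27 ± 0.12, limma, adjusted p = 0.0298). It passed the filter through the cKO libraries alone, and the call was lost without cKO replicate 1 (adjusted p = 0.0512). Socs3, the feedback inhibitor of STAT3 signalling, had 3.84 and 3.87 FPKM in WT and 2.76 and 3.62 FPKM in cKO (log2 fold change -0.22, adjusted p = 0.391). Cish, a feedback target of STAT5, had 29.1 and 27.0 FPKM in WT and 39.97 and 49.3 FPKM in cKO (0.64, adjusted p = 0.087; voom, adjusted p = 0.0334).

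Several target genes of STAT2 rose, as Stat2 did. Irf9, its partner in the interferon complex, had 9.78 and 10.3 FPKM in WT and 14.3 and 16.8 FPKM in cKO (log2 fold change 0.58 ± 0.11, limma, adjusted p = 0.078; voom, adjusted p = 0.0325). Of 6 genes listed as STAT partners, Irf9 included, none passed (limma; 1 higher and 1 lower at an unadjusted p under 0.05, 1 higher by voom), with a median of 0.09. Of 19 STAT2 targets, Irf9 among them, 8 were tested, and 5 rose and 0 fell, beside 0.814% and 0.256% of all tested genes. These 8 had a median of 1.30 (limma; 8 higher at an unadjusted p under 0.05 and 8 by voom). Irf7, Xaf1 and Usp18 of these 8 passed the filter with a WT mean under 1 FPKM. For them a higher cKO mean was thus fixed in advance. Both cKO values lay above both WT values for all 8 tested targets, beside 27.2% of all tested genes. Over all 19, the 11 below the filter included, this held for 18, the exception being Oas2 with 1 read in all. The share among other genes below the filter was not computed, and nothing is read from the counts of 8 and 18. Some of the 11 rest on few reads, such as Ifi44 with 0 and 1 in WT and 7 and 4 in cKO. Ifih1, which encodes the RNA sensor MDA5, had 4.24 and 3.87 FPKM in WT and 17.98 and 15.5 FPKM in cKO (1.81 ± 0.11, adjusted p = 0.0166). Oas3, which encodes an antiviral synthetase, had 1.16 and 1.05 FPKM in WT and 5.64 and 7.13 FPKM in cKO (1.80 ± 0.13, adjusted p = 0.0206). Isg15, a ubiquitin-like modifier, had 2.16 and 2.08 FPKM in WT and 8.72 and 7.37 FPKM in cKO (1.53 ± 0.11, adjusted p = 0.0206). Interferon genes were already known to be higher from earlier results of these libraries when this list was written, so it is not independent support.

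Targets of STAT3 had log2 fold changes of both signs. Of 16 tested, 2 rose and 0 fell (4 higher and 4 lower at an unadjusted p under 0.05, and 4 higher and 0 lower by voom), with a median of -0.10. The cKO values lay above both WT values for 6 of the 16 and under both for 8, beside 27.2% and 28.7% of all tested genes. Those that rose were Il10 and Maf, a transcription factor gene, which had 11.9 and 11.4 FPKM in WT and 23.0 and 21.4 FPKM in cKO (log2 fold change 0.87 ± 0.09, limma, adjusted p = 0.0356). The call of Maf was lost if WT replicate 1 or 2 was left out (adjusted p = 0.134 and 0.203). Il17a, the defining Th17 cytokine gene, had 757 and 628 FPKM in WT and 521 and 479 FPKM in cKO (-0.46, adjusted p = 0.159), so that the sign was opposite to that of Stat3.

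**Figure D4:**
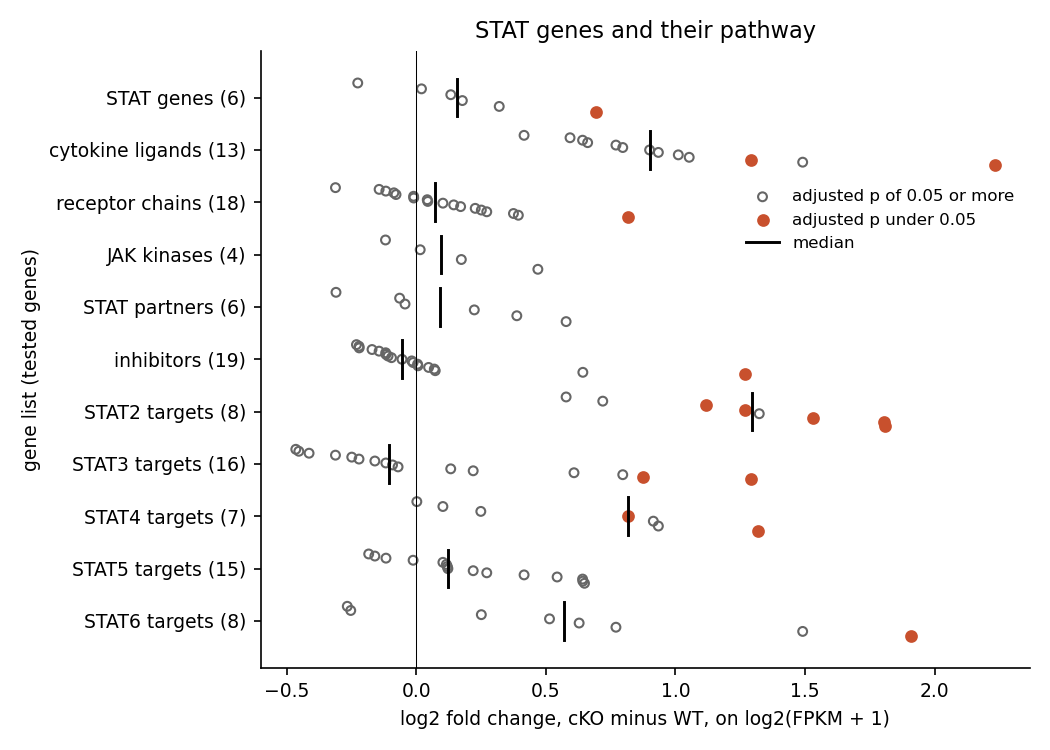
Log2 fold change of cKO minus WT (x axis) for the 6 STAT genes and the tested genes of 10 pathway lists (y axis, number of genes in brackets), filled where the adjusted p was under 0.05, with a bar at each list's median. The STAT2 targets have a median of 1.30 and the cytokine ligands of 0.90, while the inhibitors lie at -0.05 and the STAT3 targets at -0.10. The STAT2, STAT4 and STAT6 targets, the ligands and the inhibitors include genes that passed the filter with a WT mean under 1 FPKM.

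For STAT4, 7 of 9 listed targets were tested, and 2 rose and 0 fell, beside 0.814% and 0.256% of all tested genes. The 7 had a median of 0.82 (limma; 4 higher and 0 lower at an unadjusted p under 0.05, 4 higher by voom). Il18rap passed the filter with a WT mean under 1 FPKM. Those that rose were Il12rb2 and Tbx21, which encodes the Th1 factor T-bet and had 5.77 and 5.74 FPKM in WT and 13.9 and 18.1 FPKM in cKO (log2 fold change 1.32 ± 0.14, limma, adjusted p = 0.0356). Tbx21 lost its call when WT replicate 1 or 2 was left out (adjusted p = 0.0558 and 0.074). The values of Stat4 itself overlapped between the groups, as given above, and whether its level bears on these targets was not tested. Of 15 tested targets of STAT5, none passed (limma; 6 higher and 0 lower at an unadjusted p under 0.05, 3 higher by voom), with a median of 0.12 and with Gzmb, a cytotoxic granule gene, at the largest log2 fold change (0.65, adjusted p = 0.139). Of 8 tested targets of STAT6, 1 rose and 0 fell (limma; 4 higher and 1 lower at an unadjusted p under 0.05, 3 higher by voom). Il4 and Il13 of these 8 passed the filter with a WT mean under 1 FPKM. The one that rose was Il24, from 1.84 and 1.21 FPKM in WT to 8.63 and 8.22 FPKM in cKO (1.91 ± 0.14, adjusted p = 0.0206). Gata3, the Th2 factor gene, had 8.63 and 7.11 FPKM in WT and 11.3 and 14.2 FPKM in cKO (0.63, adjusted p = 0.109).

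Over the 93 tested genes of the 10 lists together, 11 rose and 0 fell (34 higher and 6 lower at an unadjusted p under 0.05, and 27 higher and 0 lower by voom). The share of all tested genes called higher was 0.814%, but nothing is read from the difference. Csf2, Tbx21, Il24, Il12rb2 and interferon targets among the 11 were known to be higher from those earlier results when the lists were written, and Usp18 and Irf7 passed the filter through the cKO libraries.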

How the data were processed

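The 4 RNA-seq libraries, 2 of each genotype, are in 1 deposited table of FPKM per gene. Per the submitters' processing notes, the authors counted reads with featureCounts 1.5.0-p3 and named the builds GRCm38 and mm10. No source used here gives the aligner, the annotation, the use of strand or the step that made FPKM, so reads of genes that overlap, on either strand, may be mixed. GENCODE M21 (GRCm38) held 99.6% of the gene IDs and gave GC content from each gene's longest transcript. Promoters are from RefSeq (GRCm38.p6), where all 6 STAT genes had a window.

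Reads were recovered from FPKM times gene length, and 100% of values above 0 came out whole within 0.01 read. Chi-square over genes, divided by its degrees of freedom, was 4.63 within WT and 27.9 within cKO, so replicates differed by more than sampling noise.

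Genes with a mean of 1 FPKM or more were tested with limma 3.58.1 (R 4.3.3) on log2(FPKM + 1), a pseudocount of 1, with a variance trend. The contrast was cKO minus WT, two-sided, with Benjamini-Hochberg adjustment at 0.05 over the 10562 tested genes. This scale understates fold changes of low genes. An exact permutation test of 2 against 2 cannot go under p = 0.333. limma voom on the recovered reads used TMM (trimmed mean of M values) factors. On reads simulated for cKO against WT over 10562 genes, the limma fit recovered 13.4% of genes changed 1.5-fold, 83.6% of those changed 2-fold and 97.0% of those changed 4-fold, and called 11 of 10362 unchanged genes.

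Members and gene lists were chosen with earlier results of these data known. The named genes were the members, up to 3 called genes per list and direction (or else the tested gene that changed most), a fixed set of pathway genes, and the 3 genes most like each member, without predicted genes, pseudogenes or receptor segments. Some genes that this rule names are not reported here. Alternatives were pseudocounts of 0.1 and 0.5, no filter and a filter at 5 FPKM, other scalings and variance settings, a replicate block, voom, a GC correction and the omission of each library.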

Additional observations from a re-analysis of the deposited data

How the results depend on the processing

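The call of Stat2 was lost with a pseudocount of 0.1 (log2 fold change 0.81, adjusted p = 0.0521), without a filter (0.69, adjusted p = 0.176), with TPM scaling (0.69, adjusted p = 0.0644), quantile normalization (0.71, adjusted p = 0.0521), a robust variance (0.69, adjusted p = 0.0519) and no variance trend (0.69, adjusted p = 0.0555), so that 0 STAT genes were then called higher. The cause was not tested. The omissions of a library gave Stat2 log2 fold changes from 0.65 to 0.73 and adjusted p from 0.0172 to 0.23, and between 0 and 1 STAT genes called higher. Stat5a ranged from -0.020 to 0.38 and Stat5b from -0.090 to 0.13 over these omissions, and Stat5b was at -0.072 with TPM scaling. No STAT gene was called lower in any alternative. Stat4 was not tested with a filter of 5 FPKM.

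Among all tested genes, 52 were higher with TPM scaling and 15 lower with a pseudocount of 0.1. Without a filter 0 genes were called in either direction, pathway genes included, with 3012 of 21807 genes at an unadjusted p under 0.05. With a replicate block 154 were higher and 73 lower, with voom 284 and 263, and with the GC correction 280 and 237. Without 1 library, 49 to 1390 were higher and 6 to 1614 lower, both highest without cKO replicate 2. Pathway genes called higher numbered 7 with a filter of 5 FPKM, 17 with a replicate block, 27 with voom, 24 with the GC correction and 6 to 32 without 1 library, when 0 to 9 were lower.

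The replicate numbers are not said to pair the libraries. Deviations of same-numbered libraries from their group means correlated at -0.093 across genes, and with the replicate block Stat2 had an adjusted p of 0.0445 and no call of another STAT gene was gained. With 1 library left out, the lone library is assumed to vary like the other genotype. Stat4 and Stat2, with 211 to 808 reads a library, were the STAT genes measured with the fewest reads.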
